A study of Mus musculus with 6 samples.

Results

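The EGF family ligands and their ERBB receptors were followed by the exact symbols of 10 genes: the receptor genes Egfr, Erbb2, and Erbb3, and the ligand genes Areg, Ereg, Hbegf, Tgfa, Btc, Epgn, and Egf. All 10 were among the 26167 genes listed. RNA-seq was performed on 3 control and 3 Sora-treated tumors of Hepa1-6, a mouse hepatoma cell line whose tumors the sample labels write as Hep1-6, with 1 library per tumor. Both groups were tumors grown under the skin of female C57BL/6J mice of 6 to 8 weeks, and no other agent or allele was named for either group. Sora (sorafenib), an inhibitor of RAF kinases and of several receptor tyrosine kinases, was injected intraperitoneally at 10 mg per kg on days 9, 11, 13, and 15 after the tumor cells. What the control mice received is not described in the sources used here. The comparison asked how the tumor transcriptome differed after Sora. Total counts were 31073830 to 36205814 reads per tumor. Afp, the fetal liver protein that hepatoma cells make, had 878 ± 193 CPM (counts scaled by library size; SD, n = 3) in control tumors and 827.5 ± 27.5 CPM (SD, n = 3) in Sora-treated tumors, so a marker of the labelled tissue was present in both groups. Tumors are numbered as in the labels, which do not say how the animals were housed or processed, so the tests measure the spread between these tumors alone.

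EGF family ligands are made as membrane-anchored precursors and are released by ADAM proteases. Areg, Tgfa, Epgn, and Egf encode ligands that bind EGFR, whereas Hbegf, Btc, and Ereg encode ligands that bind both EGFR and ERBB4. Ligand binding pairs the receptors, ERBB2 has no known ligand of its own and acts as a partner, and ERBB3 has little kinase activity and signals through its partner. The paired receptors drive the RAS, RAF, and ERK kinases and the PI3K and AKT kinases. In liver, EGFR ligands are known for their part in regeneration after injury, and Egfr is a hepatocyte gene.

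The promoters of 3 ligand genes are shown: Areg and Btc, which edgeR called and which are neighbors on chromosome 5, and Tgfa, an abundant ligand gene that edgeR did not call and DESeq2 on 6 tumors did. RefSeq windows from 250 bases before to 50 bases after the gene start in GRCm38.p6 were found for 7 of the 10 members, and not for Hbegf, Ereg, and Erbb3. The Areg window is chr5:91139349-91139648 on the plus strand, the Btc window is chr5:91402945-91403244 on the minus strand, and the Tgfa window is chr6:86194972-86195271 on the plus strand. Each is printed 5′ to 3′ on the strand of the gene, and capitals mark only the matches whose positions are given next.
Areg: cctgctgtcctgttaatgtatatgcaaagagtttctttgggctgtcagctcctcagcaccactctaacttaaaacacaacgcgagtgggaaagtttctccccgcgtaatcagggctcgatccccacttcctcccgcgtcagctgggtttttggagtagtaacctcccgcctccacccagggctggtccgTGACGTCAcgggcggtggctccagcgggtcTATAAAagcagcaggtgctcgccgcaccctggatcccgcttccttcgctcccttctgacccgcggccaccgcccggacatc
Btc: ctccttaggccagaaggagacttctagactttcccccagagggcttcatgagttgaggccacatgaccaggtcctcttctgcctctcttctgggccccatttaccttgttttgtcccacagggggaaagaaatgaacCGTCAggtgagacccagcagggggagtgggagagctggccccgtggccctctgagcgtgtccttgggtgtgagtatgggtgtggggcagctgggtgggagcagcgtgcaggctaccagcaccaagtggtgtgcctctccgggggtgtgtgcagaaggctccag
Tgfa: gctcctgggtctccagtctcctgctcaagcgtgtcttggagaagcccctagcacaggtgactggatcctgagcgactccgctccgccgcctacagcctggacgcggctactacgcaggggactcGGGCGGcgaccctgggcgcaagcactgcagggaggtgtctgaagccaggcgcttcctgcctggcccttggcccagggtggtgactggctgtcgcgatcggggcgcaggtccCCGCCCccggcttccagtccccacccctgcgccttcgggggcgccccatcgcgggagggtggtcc
In Areg, the capitals are the cAMP response element TGACGTCA, which begins 61 bases before the start, and the TATA box TATAAA, which begins 31 bases before it. In Btc, the capitals are the reverse complement of the shorter element TGACG, 113 bases before the start. In Tgfa, the capitals are GGGCGG, the core of an SP1 site, 126 bases before the start, and its reverse complement 15 bases before it. The Areg window also holds, in lower case, GGGCGG 52 bases before the start and its reverse complement at base 37 after it, and the reverse complement of TGACG 115 bases before the start. Both strands were searched, and every full cAMP response element also holds the shorter element. The full element was in 1.79% of the 32851 promoter windows of the reference, the shorter element in 20.8%, TATAAA in 13.6%, and GGGCGG in 35.7%. Among the member promoters, 8 windows in all, 1 held the full element, 4 held the shorter element, 2 held TATAAA, and 3 held GGGCGG. The AP-1 letters TGANTCA were in none of the 8 windows and in 7.81% of all windows. A match describes the letters of the window and not a bound site.

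Of the 10 members, 9 passed the filter of at least 10 counts in at least 3 tumors, and each of these 9 had at least 10 counts in every tumor. Epgn did not pass. By edgeR's quasi-likelihood test, with p adjusted over all 16513 genes tested, 3 members were up-regulated in Sora-treated tumors (Areg, Hbegf, and Btc) and 0 were down-regulated, whereas 5 members, and 17.2% of all genes tested, had an unadjusted p under 0.05. Over all genes tested, 3.29% were called, 1.94% up and 1.34% down. The values of 5 tested members (Areg, Hbegf, Btc, Tgfa, and Egfr) did not overlap between the groups, all of them higher in Sora-treated tumors, whereas 22.2% of all genes tested did not overlap, 10.6% higher and 11.6% lower. The median log2 fold change was 0.39 over the tested members and -0.00037 over all genes tested. In these whole-tumor RNA samples, a change in the number of cells of a type and a change in RNA per cell cannot be told apart.

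Areg encodes amphiregulin, a ligand of EGFR made by epithelia and by some lymphocytes. Its level, in FPKM (counts divided by gene length and library total), was 11.2, 15.8, and 13.4 in control tumors 1, 3, and 4, against 54.8, 27.6, and 57.3 in Sora-treated tumors 2, 3, and 4. Every Sora-treated tumor was above every control tumor, and Sora-treated tumor 3 lay nearest the controls. Relative to the mean of the controls, Areg was 4.03-fold in Sora-treated tumor 2, 2.03-fold in tumor 3, and 4.38-fold in tumor 4. The log2 fold change was 1.80 (SE 0.25, 95% interval 1.25 to 2.34), a 3.48-fold rise, with an adjusted p of 0.0087 in edgeR. Areg ranked the 33rd smallest by p of all genes tested.

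Hbegf encodes the heparin-binding ligand of EGFR and ERBB4, and its transcripts were the most abundant of the family in both groups. Control tumors 1, 3, and 4 had 27.3, 31.5, and 31.4 FPKM, and Sora-treated tumors 2, 3, and 4 had 66.6, 44.5, and 72.4 FPKM. The groups did not overlap, and Sora-treated tumor 3 was again the lowest of its group. Hbegf rose 2.05-fold (log2 fold change 1.04, SE 0.16, 95% interval 0.68 to 1.39, adjusted p = 0.013 in edgeR).

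Btc encodes betacellulin, which binds the same receptors as the Hbegf product. Its level was 4.08, 5.87, and 5.30 FPKM in control tumors 1, 3, and 4, against 12.5, 7.83, and 13.6 FPKM in Sora-treated tumors 2, 3, and 4. As with Areg and Hbegf, control tumor 1 was the lowest control and Sora-treated tumor 3 the lowest treated tumor. Btc rose 2.24-fold (log2 fold change 1.16, SE 0.21, 95% interval 0.71 to 1.62, adjusted p = 0.0188 in edgeR). The call was lost in 4 of the 6 fits that left out a tumor, with an adjusted p of 0.054 without control tumor 1, 0.067 without control tumor 4, 0.060 when Sora-treated tumor 2 was left out, and 0.10 when tumor 4 was.

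**Figure D1:**
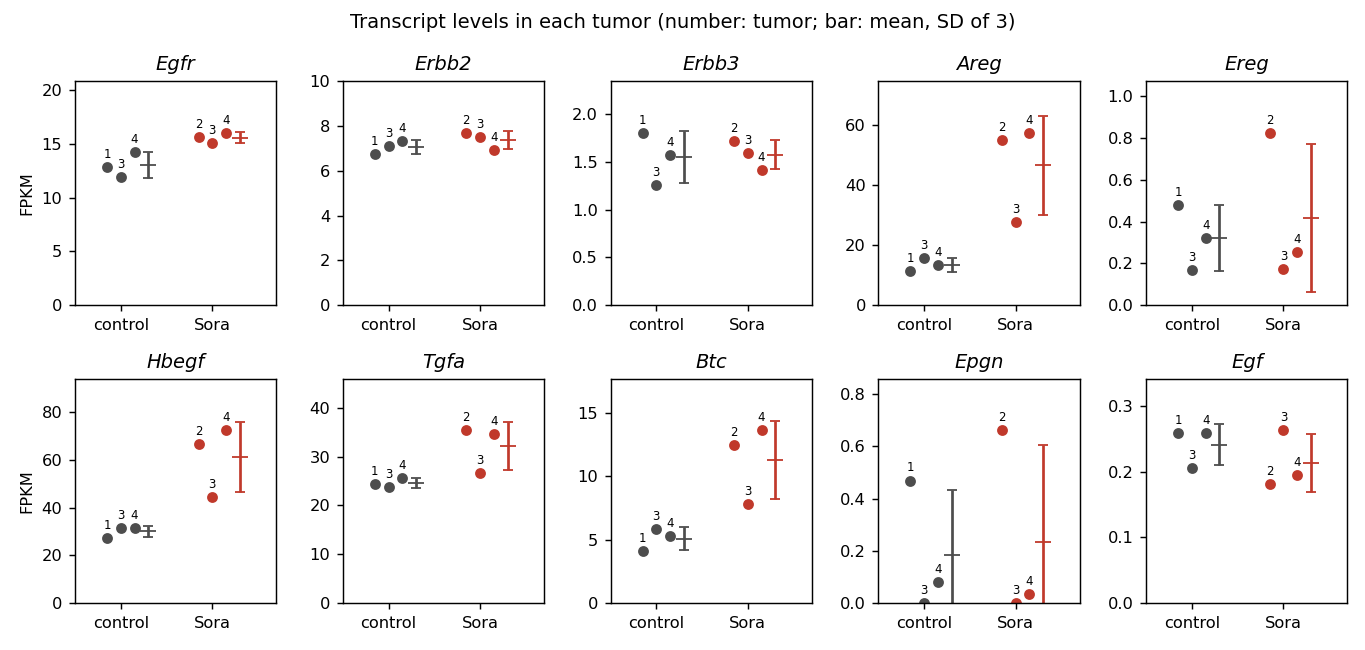
FPKM of the 10 members in each tumor (a panel per gene, vertical axis in FPKM starting at 0, points labelled with the tumor number), with the mean and SD of 3 tumors beside the points; an SD bar that would reach below 0 is drawn to 0. Areg, Hbegf, Btc, Tgfa, and Egfr did not overlap between control and Sora-treated tumors, and Sora-treated tumor 3 was the lowest treated tumor for each of them.

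These calls rested on 6 tumors, of which Sora-treated tumor 4 entered with counts recovered from its FPKM. Without that tumor, on deposited counts alone, edgeR called 5 of 16319 genes (0.0306%) and 0 members, with adjusted p of 0.058 for Areg, 0.070 for Hbegf, and 0.10 for Btc, while 5 members, and 11.9% of all genes, had an unadjusted p under 0.05. DESeq2 on the same 5 deposited columns called 505 genes (3.09%) and the members Areg, Hbegf, and Btc, with adjusted p of 0.00679, 3.5e-05, and 0.0017. With edgeR's robust setting, which called 3.92% of all genes, Hbegf was the 1 member called (adjusted p = 0.045), and the adjusted p was 0.077 for Areg and 0.060 for Btc.

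The fold differences of Tgfa and Egfr were smaller. Tgfa, which encodes transforming growth factor alpha, had 24.4, 23.7, and 25.6 FPKM in control tumors 1, 3, and 4, against 35.3, 26.6, and 34.5 FPKM in Sora-treated tumors 2, 3, and 4. Sora-treated tumor 3 lay just above the highest control, and the groups did not overlap. The log2 fold change was 0.40 (95% interval 0.16 to 0.64) with an adjusted p of 0.073 in edgeR, which did not pass the threshold. DESeq2 on all 6 tumors, which called 7.28% of the genes tested and 5 members, gave Tgfa an adjusted p of 0.0067. On the 5 deposited columns, its adjusted p in DESeq2 was 0.16. Its adjusted p in edgeR was 0.0037 without Sora-treated tumor 3 and 0.14 to 0.29 without each other tumor.

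**Figure D2:**
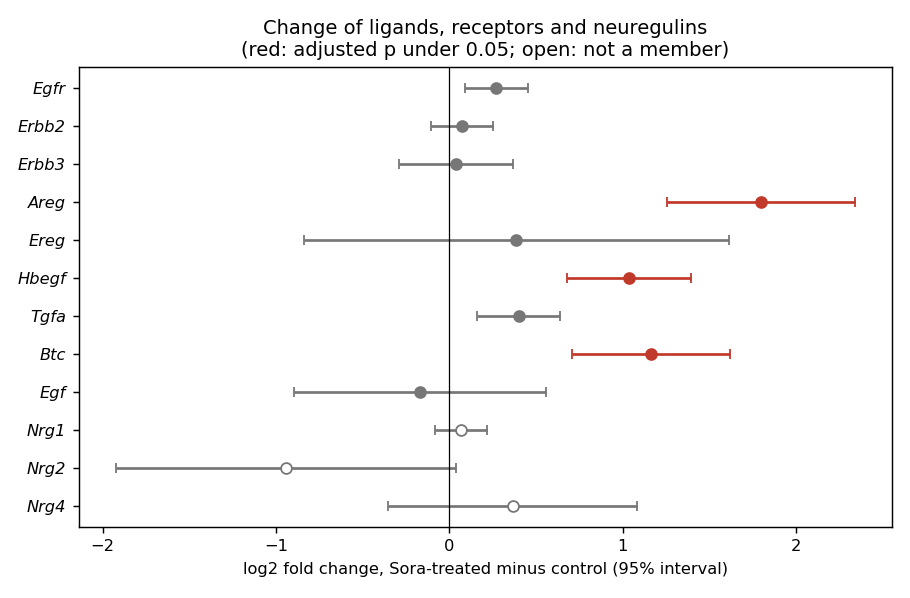
Log2 fold change (Sora-treated minus control, horizontal axis) with its 95% interval from edgeR for the 9 tested members and, as open symbols, 3 further genes of the family, in red where the adjusted p was under 0.05. Areg, Btc, and Hbegf were the genes in red, and the interval of Ereg was the widest of the members.

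The remaining ligands had few transcripts, and none of them was called. Ereg, which encodes epiregulin, had 62, 23, and 48 counts in control tumors 1, 3, and 4, against 106, 24, and 36 counts in Sora-treated tumors 2, 3, and 4. The groups overlapped, and the log2 fold change was 0.39 with a 95% interval of -0.84 to 1.61 (adjusted p = 0.785 in edgeR). Epgn, which encodes epigen, had 25, 0, and 5 counts in the controls, against 35, 0, and 2 counts in the Sora-treated tumors. A count of 0 allows up to 3 counts, or 0.0921 CPM in control tumor 3 and 0.0893 CPM in Sora-treated tumor 3. Both genes were highest in control tumor 1 and Sora-treated tumor 2. Egf, which encodes the founding ligand of the family, had 39, 33, and 45 counts in control tumors, against 27, 42, and 32 counts in Sora-treated tumors (log2 fold change -0.17, 95% interval -0.89 to 0.56, adjusted p = 0.845 in edgeR).

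The epidermis makes several of these ligands, so 18 genes of keratinocytes and skin were read beside them. Their summed level was 2300, 775, and 850 CPM in control tumors 1, 3, and 4, against 2385, 1288, and 1750 CPM in Sora-treated tumors 2, 3, and 4. Control tumor 1 and Sora-treated tumor 2 held the most skin transcripts, as they held the most Ereg and Epgn transcripts. None of the 18 genes passed the edgeR test (smallest adjusted p = 0.13), 17 had a log2 fold change above 0, and none of them was at 0 in every tumor. Among the controls, tumor 1 had the most skin transcripts and the lowest levels of Areg, Hbegf, and Btc, whereas among the Sora-treated tumors, tumor 3 had the fewest skin transcripts and the lowest levels of these 3 genes. Without the tumor with the most skin transcripts of each group, the log2 fold change was 1.55 for Areg (adjusted p = 0.038 in edgeR), 0.91 for Hbegf (adjusted p = 0.063), and 0.95 for Btc (adjusted p = 0.094), in a fit of 4 tumors that called 79 genes in all. The part of skin in the levels of the ligands was not tested.

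The fold changes of the 3 receptors were smaller than those of Areg, Hbegf, and Btc, and their 95% intervals lay wholly below the intervals of these ligands. Egfr had 12.8, 11.9, and 14.3 FPKM in control tumors 1, 3, and 4, against 15.6, 15.03, and 16.0 FPKM in Sora-treated tumors 2, 3, and 4. The groups did not overlap and the log2 fold change was 0.27 (95% interval 0.09 to 0.45), but the adjusted p of 0.102 in edgeR did not pass the threshold; in DESeq2, it was 0.026 on 6 tumors and 0.21 on the 5 deposited columns. Erbb2, the partner receptor, had 6.74, 7.09, and 7.34 FPKM in control tumors, against 7.69, 7.50, and 6.93 FPKM in Sora-treated tumors. Erbb3 had 1.81, 1.26, and 1.57 FPKM in control tumors, against 1.72, 1.60, and 1.42 FPKM in Sora-treated tumors. Both overlapped between groups, with a log2 fold change of 0.07 (95% interval -0.10 to 0.25) for Erbb2 and 0.04 (95% interval -0.29 to 0.37) for Erbb3.

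The other genes of the family gave no call. Erbb4, the receptor of the neuregulins and of the ligands Hbegf, Btc, and Ereg, had 1 count in control tumor 4 and 0 in the other 5 tumors. Nrg1, a ligand gene of ERBB3 and ERBB4, had 3.89 to 4.21 FPKM in control tumors and 4.08 to 4.40 FPKM in Sora-treated tumors (log2 fold change 0.06, adjusted p = 0.693 in edgeR). Nrg2 had a log2 fold change of -0.94 (adjusted p = 0.312) and Nrg4 of 0.37 (adjusted p = 0.632) in edgeR. Nrg3 had 1 count each in control tumors 3 and 4 and was not tested.

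Per length, the order of the members by mean FPKM in control tumors was Hbegf (30.1), Tgfa (24.6), Areg (13.5), Egfr (12.99), Erbb2 (7.06), Btc (5.08), Erbb3 (1.55), Ereg (0.322), Egf (0.242), and Epgn (0.183). Among neighbors in this order, Areg and Egfr, Ereg and Egf, and Egf and Epgn overlapped between tumors. In Sora-treated tumors the order was Hbegf (61.2), Areg (46.6), Tgfa (32.2), Egfr (15.5), Btc (11.3), Erbb2 (7.38), Erbb3 (1.58), Ereg (0.418), Epgn (0.232), and Egf (0.213). There, Hbegf and Areg, Areg and Tgfa, Ereg and Epgn, and Epgn and Egf overlapped. Areg thus stood above Tgfa in the means of Sora-treated tumors and below it in those of control tumors, and Btc stood above Erbb2 and below it, respectively.

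**Figure D3:**
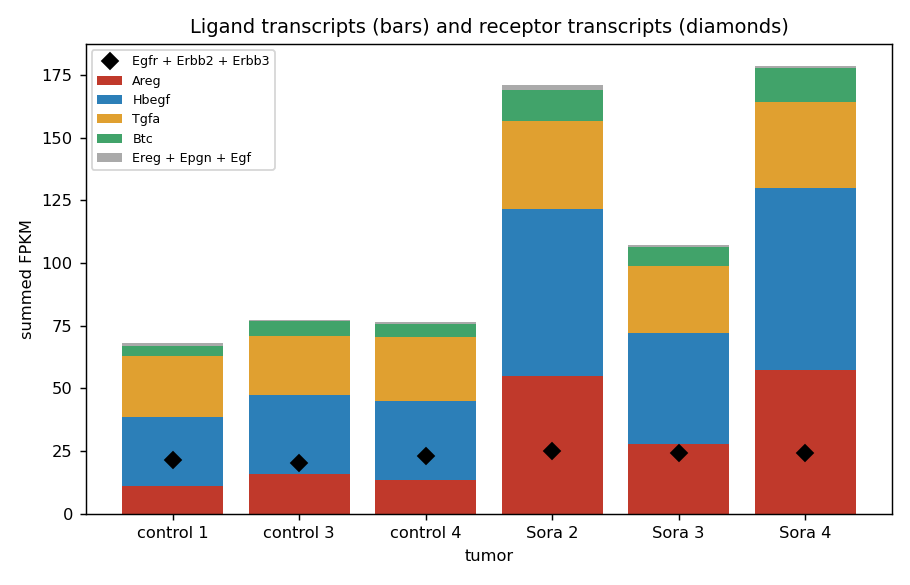
Summed FPKM of the 7 ligand genes in each tumor (bars from 0, stacked by ligand). Hbegf, Tgfa, and Areg made up 91.7% to 92.3% of the sum in every tumor, and the sum was 68.2 to 77.3 FPKM in control tumors and 107.0 to 178.4 FPKM in Sora-treated tumors.

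The composition of the ligand transcripts was compared as a share of the summed ligand FPKM. Areg made up 18.2% ± 2.09 (SD, n = 3) of it in control tumors and 30.01% ± 3.62 (SD, n = 3) in Sora-treated tumors. Tgfa made up 33.3% ± 2.54 (SD, n = 3) and 21.6% ± 2.86 (SD, n = 3), respectively. The tumors of the groups did not overlap for either ligand. The share of Hbegf was 40.6% ± 0.544 (SD, n = 3) in control tumors and 40.4% ± 1.33 (SD, n = 3) in Sora-treated tumors, and that of Btc was 6.84% ± 0.809 (SD, n = 3) and 7.42% ± 0.190 (SD, n = 3). The ratio of the summed FPKM of the 7 ligands to that of the 3 receptors was 3.19, 3.82, and 3.30 in control tumors 1, 3, and 4, against 6.83, 4.43, and 7.32 in Sora-treated tumors 2, 3, and 4. The receptor sum alone was 20.3 to 23.2 FPKM in control tumors and 24.1 to 25.0 FPKM in Sora-treated tumors.

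Genes of ligand shedding, of receptor inhibition and turnover, of downstream signaling, and of ERK output were read from 4 lists. Of 11 genes for ligand shedding, none passed the edgeR test, and their median log2 fold change was 0.04, with 7 genes higher and 4 lower. The largest value was that of Rhbdl2, which encodes a membrane protease of the rhomboid family (log2 fold change 0.40, adjusted p = 0.066 in edgeR), and the smallest that of Adam12 (-0.55, adjusted p = 0.14). DESeq2 on 6 tumors called both (adjusted p = 0.045 for Rhbdl2 and 0.027 for Adam12). Of 15 genes for receptor inhibitors and turnover, none passed the edgeR test. The groups did not overlap for 6 of the 15, 4 of them higher in Sora-treated tumors, against 22.2% of all genes tested (10.6% higher). Their sum was 1255, 1329, and 1295 CPM in control tumors 1, 3, and 4. It was 1377, 1381, and 1406 CPM in Sora-treated tumors 2, 3, and 4, which did not overlap the controls. The median log2 fold change was 0.06. The largest value was that of Lrig3 (log2 fold change 0.32, adjusted p = 0.0999 in edgeR) and the smallest that of Ptprj, which encodes a receptor-type tyrosine phosphatase (-0.29, adjusted p = 0.060). DESeq2 on 6 tumors called Lrig3 (adjusted p = 0.030), Ptprj (adjusted p = 0.014), and Errfi1, a feedback inhibitor gene of EGFR (adjusted p = 0.016; log2 fold change 0.29 and adjusted p = 0.094 in edgeR). Of 31 adaptors and kinases downstream, none passed the edgeR test and the median was -0.002. Map2k1, which encodes the kinase MEK1, had the largest value (log2 fold change 0.34, adjusted p = 0.071 in edgeR) and Pik3r3, which encodes a regulatory subunit of PI3K, the smallest (-1.10, adjusted p = 0.098). DESeq2 on 6 tumors called both (adjusted p = 0.010 for Map2k1 and 0.012 for Pik3r3). On the 5 deposited columns, DESeq2 called none of these 7 genes. Over all genes tested, edgeR called 3.29% and DESeq2 on 6 tumors called 7.28%. A count of 0 edgeR calls in lists of 11, 15, and 31 genes is near that edgeR share. The groups did not overlap for 3 of the 11 shedding genes and 5 of the 31 adaptors and kinases.

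The fourth list held 26 genes whose transcripts are known to rise with ERK activity. The list was written with earlier results of these data known, so its shares are descriptions and not a test. In edgeR, 9 of them (34.6%) were up-regulated in Sora-treated tumors and 0 were down-regulated, against 1.94% of all genes called up. The median log2 fold change was 0.35, with 21 genes higher and 5 lower. The groups did not overlap for 15 of the 26 genes (22.2% of all genes tested). Of these, 13 were higher in Sora-treated tumors (10.6% of all genes tested), and Spry1 and Etv5 were lower. Spry4, a feedback inhibitor of receptor kinase signaling, had 28.7, 28.1, and 33.7 CPM in control tumors 1, 3, and 4, against 61.1, 41.8, and 61.6 CPM in Sora-treated tumors 2, 3, and 4. Sora-treated tumor 3 was the lowest treated tumor here too. Spry4 had a log2 fold change of 0.86 (adjusted p = 0.015 in edgeR).

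Among the other genes called, the ERK phosphatase gene Dusp5 rose by 0.79 (log2 fold change; adjusted p = 0.023 in edgeR) and Dusp4 by 0.53 (adjusted p = 0.031). The transcription factor genes Fosb and Egr1 rose by 0.71 (adjusted p = 0.042) and 0.58 (adjusted p = 0.043). Spred3, a RAS pathway inhibitor gene, rose by 0.64 (adjusted p = 0.021), Plaur, the urokinase receptor gene, by 0.62 (adjusted p = 0.027), Epha2, a receptor kinase gene, by 0.53 (adjusted p = 0.018), and Ier3 by 0.42 (adjusted p = 0.043). Spry1 had the smallest value of the list, -0.51 (adjusted p = 0.12). Without Sora-treated tumor 4, edgeR called none of the 26 genes, with 14 of them and 11.9% of all genes at an unadjusted p under 0.05, whereas DESeq2 on the 5 deposited columns called 7 up. The number called in edgeR was also 0 without control tumor 1 and 0 without the 2 tumors with the most skin transcripts, with 14 at an unadjusted p under 0.05 in each (14.4% and 10% of all genes), where 174 and 79 genes were called in all. It was 1 without control tumor 4 (176 genes in all), 1 without Sora-treated tumor 2 (117 genes), 7 without control tumor 3 (316 genes), and 13 without Sora-treated tumor 3 (1145 genes). DESeq2 on all 6 tumors called 12 up and 2 down, the latter Spry1 (adjusted p = 0.021) and Etv5 (adjusted p = 0.044). On the 5 deposited columns, DESeq2 called neither Spry1 (adjusted p = 0.31) nor Etv5 (adjusted p = 0.21). Limma called 4 of the 26 genes on log2(FPKM + 1) and 3 on log2(FPKM + 0.1).

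**Figure D4:**
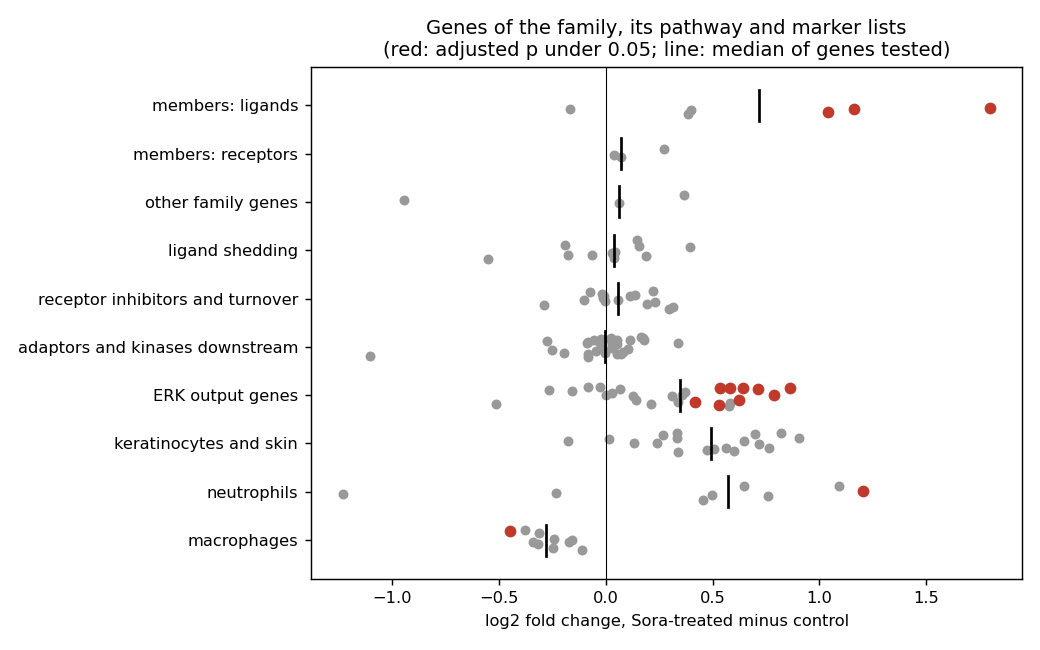
Log2 fold change (Sora-treated minus control) of every tested gene of the family, of 4 pathway lists, and of 3 marker lists (points, red where the edgeR adjusted p was under 0.05, black line at the median). Among the lists drawn, the red points lie among the ligands and the ERK output genes, with 1 gene each in the neutrophil and macrophage lists, and none in the shedding, inhibitor, and adaptor lists. The other marker lists are not drawn, among them the hepatoma list, where edgeR called 2 of 8 tested genes up and 2 down.

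The sum of the ERK output genes was 1.21, 1.07, and 1.27 times the control mean in Sora-treated tumors 2, 3, and 4, and 0.971, 1.017, and 1.012 times in control tumors 1, 3, and 4. The low position of Sora-treated tumor 3 was not particular to these genes. Of the 321 genes called up in edgeR, Sora-treated tumor 3 was the lowest treated tumor in 257 (80.1%), against 36.3% of all genes tested.

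**Figure D5:**
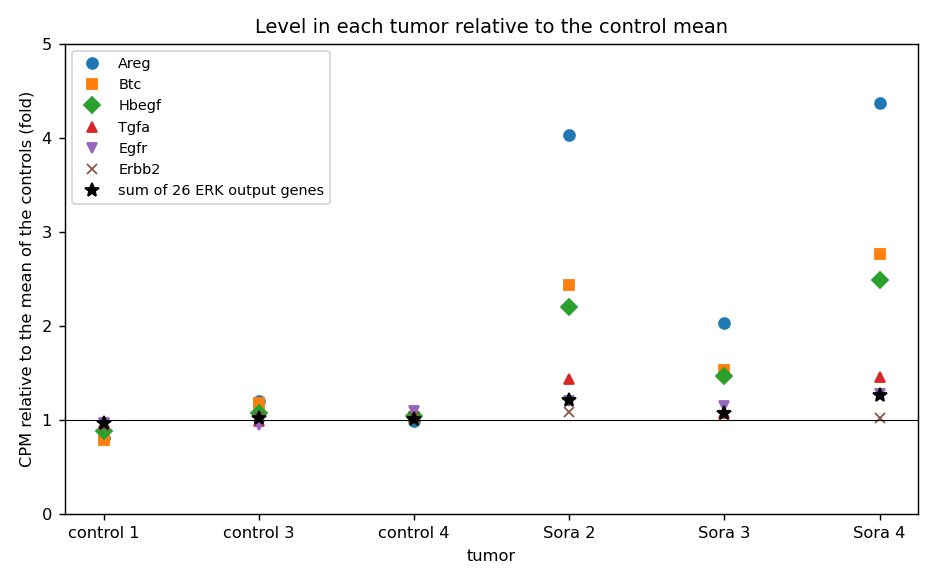
Level in each tumor relative to the mean of the 3 control tumors (CPM fold, linear axis from 0) for Areg, Btc, Hbegf, Tgfa, Egfr, and Erbb2, and for the sum of 26 ERK output genes. Sora-treated tumors 2 and 4 stand apart from tumor 3 for Areg (4.03 and 4.38 against 2.03), and the 3 control tumors lie near 1.

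Areg, Ereg, Epgn, and Btc lie side by side on chromosome 5 of the mouse in RefSeq's order, in a stretch that reads Cxcl1, Cxcl2, Mthfd2l, Epgn, Ereg, Areg, Btc, Parm1, Rchy1, and Odaph. Within it, Cxcl2, which encodes a chemokine of neutrophils, rose (log2 fold change 1.84, adjusted p = 0.028 in edgeR). Areg and Btc rose as given above, and the values of their neighbors did not pass the test, with a log2 fold change of -0.14 for Cxcl1, 0.14 for Mthfd2l, 0.39 for Ereg, 0.03 for Parm1, and 0.21 for Rchy1. Epgn and Odaph were not tested. The other members lie elsewhere, Egf on chromosome 3, Tgfa on chromosome 6, Erbb3 on chromosome 10, Egfr and Erbb2 on chromosome 11, and Hbegf on chromosome 18.

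The genes most like Areg across the 6 tumors were found among 14112 genes with a mean of at least 1 CPM, by the root mean square difference of centered log2(CPM + 1) values. They were Prss22 (0.12), Fer1l6 (0.24), Glod5 (0.27), Il24 (0.27), and Tnnt2 (0.29), all called up in edgeR, with log2 fold changes of 2.03, 1.45, 1.97, 1.60, and 1.41. Il24 encodes a cytokine of the IL-10 family, and Prss22 a serine protease. Of the members, Btc ranked the 8th, Hbegf the 17th, Tgfa the 398th, and Egfr the 1150th by this distance. The distance describes profiles over 6 tumors and carries no test.

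Cells other than hepatoma cells are known to make these ligands, and markers of 2 such types were read in the same tumors. The 10 neutrophil genes summed to 318, 365, and 288 CPM in control tumors 1, 3, and 4, against 334, 306, and 359 CPM in Sora-treated tumors 2, 3, and 4, and the groups overlapped. Mmp9, which other cells also make, had 218 to 281 CPM of this sum in control tumors and 175 to 250 CPM in Sora-treated tumors. The other 9 genes, a sum formed after the values were seen, had 79.4, 83.2, and 70.1 CPM in control tumors 1, 3, and 4, against 159, 103, and 110 CPM in Sora-treated tumors 2, 3, and 4, which did not overlap. Of 8 tested genes, 6 had a log2 fold change above 0, with a median of 0.57, and 3 of them did not overlap between the groups, against 10.6% of all genes tested higher without overlap. S100a9 was the 1 neutrophil gene called (log2 fold change 1.21, adjusted p = 0.042 in edgeR). DESeq2 did not call it (adjusted p = 0.053 on 6 tumors and 0.19 on the 5 deposited columns), nor did edgeR without Sora-treated tumor 4 (adjusted p = 0.14). DESeq2 on 6 tumors called Csf3r, the receptor gene of a granulocyte growth factor (adjusted p = 0.0071), and on the 5 deposited columns it did not (adjusted p = 0.057). In edgeR, Csf3r had a log2 fold change of 0.50 (adjusted p = 0.072). The 10 macrophage genes summed to 1994, 2173, and 1823 CPM in control tumors, against 1591, 1781, and 1519 CPM in Sora-treated tumors. The sums did not overlap. All 10 had a log2 fold change below 0, and 5 of them did not overlap between the groups, against 11.6% of all genes tested lower without overlap. Mertk was the 1 gene called in edgeR (-0.45, adjusted p = 0.031), whereas DESeq2 on 6 tumors called 5 lower (Mertk, Csf1r, C1qa, C1qb, and C1qc) and, on the 5 deposited columns, Mertk (adjusted p = 0.042). No gene of either list was at 0 in every tumor. Their part in the levels of the ligands was not tested.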

How the data were processed

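The authors prepared 1 RNA-seq library per tumor from 3 control and 3 Sora-treated tumors. They deposited counts (whole reads per gene, not normalized) for 5 of the 6 tumors in the table used here, and FPKM for all 6, which the authors made from counts, gene length, and library total. The submitters' processing notes name fastp, HISAT2, HTSeq, R 3.2.0, DESeq2, and GRCm39, whereas the study's methods name Bowtie2 and GRCm38. The annotation, the use of strand, and filters are not given in the sources used here, so antisense overlaps could not be told apart. Both tables list 26167 genes by symbol, and they hold no coordinates; chromosomes and promoters are those of RefSeq (GRCm38.p6), matched by symbol.

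The counts of Sora-treated tumor 4 were computed by multiplying its FPKM by gene lengths derived from the other 5 tumors. When each of these 5 was hidden and rebuilt in the same way, its total and the counts of all 20969 to 21229 genes with a length came out exact after rounding (at most 0.000104 from a whole number), while 460 to 556 genes holding 669 to 1023 reads had no length. For Sora-treated tumor 4 this gave 20951 genes, while 342 genes holding 512 reads had no length and stayed at 0. The 16513 genes that reached 10 counts in 3 or more tumors entered edgeR 4.0.16 (TMM scaling, glmQLFit, then glmQLFTest) in R 4.3.3, without covariates, and p was adjusted by Benjamini-Hochberg over all genes tested, with a threshold of 0.05. The SE is the log2 fold change over the square root of F. CPM were scaled by TMM. The 3-count floor on this scale was 0.0822 to 0.0959 CPM per tumor and covers counting error only.

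The genes named are all members and the 5 other family genes, in each pathway list the genes called and the largest and smallest log2 fold change, in each marker list the genes called, the profiles most like the member with the smallest p, and the neighbors on chromosome 5, which were added after values were seen. The members and lists were chosen with earlier results of these data known. Alternatives were DESeq2 1.42.0, limma 3.58.1 (voom, and log2(FPKM + 1) or log2(FPKM + 0.1)), other scalings and filters, the robust setting, a replicate block, and leaving out each tumor. DESeq2 on the 5 deposited columns and the fit without the tumor with the most skin transcripts in each group were chosen after seeing the data. The scripts were tested on simulated data.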

Additional observations from a re-analysis of the deposited data

How the results depend on the processing

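Of 167 recomputed log2 fold changes of the 9 tested members, 144 kept their direction and side of the threshold. For a member that was not called, this means that it stayed uncalled. Of the called members, Areg and Hbegf each kept the call in 16 settings and lost it in 3. Btc kept it in 11 and lost it in 8. The order of the members by FPKM was recomputed in 1 way, with CPM per length, which rescales each tumor as a whole, and was the same. The number of genes called (543) was 1202 in DESeq2, 1147 without the filter, 286 with log2(FPKM + 1), 252 with log2(FPKM + 0.1), and 79 without the 2 tumors with the most skin transcripts. With limma on log2(FPKM + 1) without a filter it was 0 of 26167 genes, and 0 members, with 3143 genes and 5 members at an unadjusted p under 0.05. Leaving out each tumor gave 5 to 1145 genes, the lowest without Sora-treated tumor 4 and the highest without Sora-treated tumor 3; without the others it was 117 (Sora-treated tumor 2), 174, 316, and 176 (control tumors 1, 3, and 4). The number of members called (3) was 5 in DESeq2, 1 with the robust setting, 1 without the 2 tumors with the most skin transcripts, and 0 to 4 when each tumor was left out. The replicate numbers 3 and 4 occur in both groups, but no label says that they mark a shared batch. The deviations of same-numbered tumors from their group means had correlations of -0.03 and -0.07. Pairs with different numbers had -0.16 to 0.26. These 2 correlations cannot show whether same-numbered tumors shared a batch. With the number as a block, 125 genes, 2 members, and 1 ERK output gene were called, and Btc was not (adjusted p = 0.082 in edgeR). Number 1 occurs only in the controls and number 2 only in the Sora-treated tumors. The fold changes of this fit therefore rest on tumors 3 and 4 of each group. These are also the tumors left in the fit without the 2 tumors with the most skin transcripts.

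Ereg and Erbb3, both uncalled, changed sign. Ereg had a log2 fold change of -0.14 with the block, -0.55 without Sora-treated tumor 2, and -0.17 without the 2 tumors with the most skin transcripts. Sora-treated tumor 2 had no part in the fold change of any of these fits. It had 106 Ereg counts, against 24 and 36 in Sora-treated tumors 3 and 4. Erbb3 had -0.069 without control tumor 3 and -0.016 without Sora-treated tumor 2. When each tumor was left out, Ereg ranged from -0.55 to 0.76 and Erbb3 from -0.069 to 0.15. The cause was not tested. Areg and Hbegf were each called in 5 of the 6 fits that leave out a tumor, and Btc in 2. Ereg, Epgn, and Egf had at most 106 counts in a tumor. The coefficient of variation of CPM between tumors was 46.5% and 83.7% for Ereg, and 136% and 160% for Epgn, in control and Sora-treated tumors, respectively.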

Other observations

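Other cell types were read from marker lists in the same tumors. The 8 fibroblast genes summed to 8078, 7794, and 7999 CPM in control tumors 1, 3, and 4 and to 6707, 6976, and 5549 CPM in Sora-treated tumors 2, 3, and 4, which did not overlap. None of the 8 passed the edgeR test, whereas DESeq2 called the collagen genes Col1a1, Col1a2, and Col3a1 lower, with adjusted p of 0.0067, 0.00046, and 0.0024 on 6 tumors and of 0.028, 0.000797, and 0.0074 on the 5 deposited columns. Of the mast cell and basophil genes, Hdc, which encodes the enzyme that makes histamine, rose (log2 fold change 1.01, adjusted p = 0.046 in edgeR), while the sum of the list overlapped between the groups (134 to 189 CPM against 142 to 202 CPM). No gene passed the edgeR test among the markers of Treg cells and ILC2 (lymphocytes known to make amphiregulin), endothelial cells, skeletal muscle, or adipocytes, and the sums of these lists overlapped as well. All 7 tested adipocyte genes had a log2 fold change above 0, with a median of 0.67, and DESeq2 on 6 tumors called Plin4 (adjusted p = 0.024) and Cfd (adjusted p = 0.0015). On the 5 deposited columns, DESeq2 called neither Plin4 (adjusted p = 0.10) nor Cfd (adjusted p = 0.059). The hepatoma markers summed to 3516, 4723, and 4679 CPM in control tumors 1, 3, and 4. In Sora-treated tumors 2, 3, and 4, they summed to 3146, 3505, and 3319 CPM. Of 8 tested genes, Alb and Ttr fell while Apoa1 and Hnf4a rose in edgeR. DESeq2 gave Apoa1 an adjusted p of 0.061 on 6 tumors and of 0.024 on the 5 deposited columns. Without Sora-treated tumor 4, edgeR called Ttr and no other gene of the marker lists. Their part in the levels of the ligands was not tested.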
